A study of Drosophila melanogaster with 12 samples.

Results

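The knockdown effect on transcript levels in fruit flies (Drosophila melanogaster) is described here as the mean of the adult change and the larval change. For each probe set it was 0.5 times the sum of adult knockdown minus adult wild type and larval knockdown minus larval wild type, on the log2 scale, over all 12 arrays of the series and all 18769 probe sets other than the Affymetrix controls. The arrays were 3 of adult flies with knockdown of selenophosphate synthetase 2 (SPS2, gene symbol Sps2), 3 of wild-type adults, 3 of knockdown larvae and 3 of wild-type larvae. Per the labels, the flies fed on cornmeal and yeast, and the arrays are biological replicates. How Sps2 was knocked down, in which cells, which line served as wild type, and the flies' sex, age in days and body part were not stated in any source used. Nothing says that the replicates came from separate crosses, so the p-values measure the spread between these samples, which may be partly technical.

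Selenophosphate synthetase 2 joins selenide to phosphate from ATP. The product, selenophosphate, donates the selenium with which a serine held on its own transfer RNA is turned into selenocysteine. The ribosome inserts selenocysteine at certain UGA codons with the help of a dedicated elongation factor, eEFSec, and an RNA-binding protein, Sbp2. In the fruit fly the known selenoproteins are few and include SelG, BthD and Sps2 itself. Many selenoproteins of other animals are redox enzymes.

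The values are log2 signals from whole RNA of bulk samples, so fewer cells of a type and less RNA per cell cannot be told apart. Within a group the arrays correlated at r = 0.934 to 0.961 (Pearson, across probe sets). In adults the array medians were 6.37 to 6.48 for knockdown and 6.69 to 6.77 for wild type. In larvae they were 6.03 to 6.16 for knockdown and 5.95 to 6.04 for wild type. The 3' minus 5' signal of 3 control transcripts, a measure of RNA quality and labelling, averaged 2.44 in adult knockdown and 2.42 in adult wild type, with 3.70 for knockdown larvae and 3.51 for wild-type larvae. The stage labels were checked on an adult marker, the yolk protein gene Yp1. It averaged 13.90 in adult knockdown and 14.10 in adult wild type, but 4.50 for knockdown larvae and 3.48 for wild-type larvae. The salivary glue genes, larval markers, had array medians of 3.22 to 4.46 in knockdown larvae and 4.01 to 4.40 in wild-type larvae. These lay under the mean 40th percentile of the arrays (5.25 and 5.16), too low to check the larval labels.

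A probe set or gene is called where limma's adjusted p (Benjamini-Hochberg over all 18769 probe sets) is under 0.05. For 11982 genes, each represented by its brightest probe set, 3103 (25.9%) were called on the average. Of these, 1613 rose (13.5% of all genes) and 1490 fell (12.4%). An average can be called on the strength of 1 stage. A change is therefore termed shared where the gene was called on the average and the 3 knockdown arrays all lay on the same side of the 3 wild-type arrays at both stages. By this measure 830 genes rose (6.93% of all genes) and 775 fell (6.47%). Of the 18769 probe sets 3692 (19.7%) were called, and their split depended on scaling: 51.5% were higher as deposited, against 71.4% after each array was centred on its median, which moved the median averaged change of all probe sets to 0.0999 from 0.00309.

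Among the 3103 called genes, 887 were also called in adults and in larvae separately in the same direction, 1057 in adults and not in larvae, 867 in larvae and not in adults, and 276 at neither stage. A further 16 were called at both stages in opposite directions. The difference between the adult and larval change was itself called for 876 of the 3103, read against 16.6% of all genes. Of the 1605 shared genes, the difference between stages was called for 260. The shared changes were mostly small, with a median of 1.39-fold, and 107 shared genes rose at least 2-fold (0.893% of all genes) while 160 fell at least 2-fold (1.34%). Symbols that are only annotation numbers made up 38.4% of the shared genes and 44.3% of all genes.

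**Figure D1:**
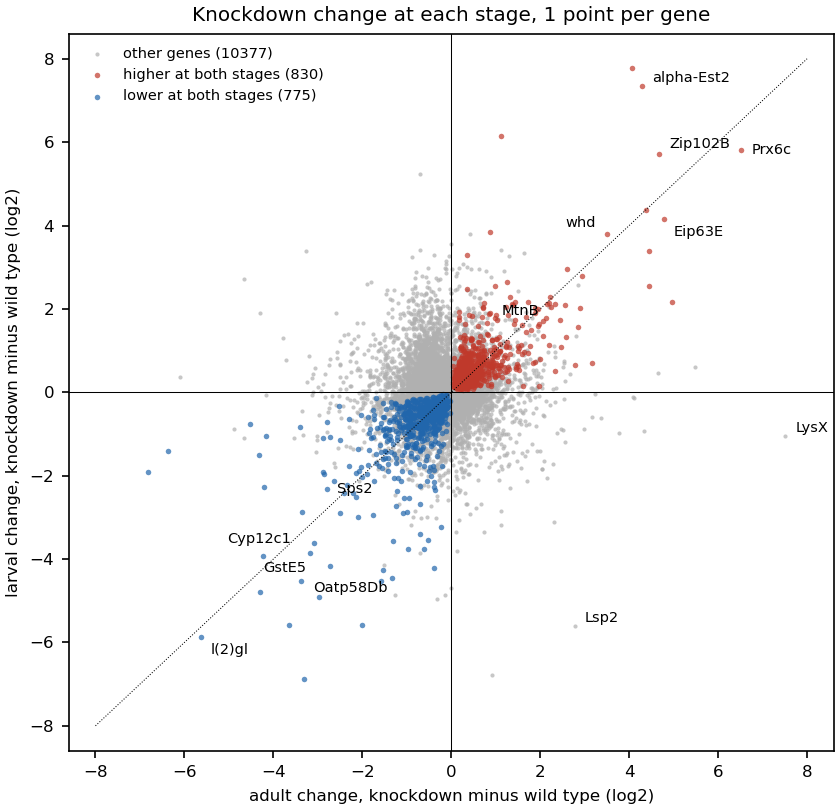
Each point is 1 gene, with its adult change (knockdown minus wild type, log2) on the horizontal axis and its larval change on the vertical axis, and the dotted line marks equal change. Red points are the 830 genes higher at both stages and blue points the 775 lower at both stages. Prx6c, alpha-Est2 and Zip102B lie at the upper right and l(2)gl at the lower left, while Lsp2 lies far from the diagonal.

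The targeted gene was lower on every knockdown array. Sps2 had 7.10, 7.11 and 6.82 log2 signal in adult knockdown, against 9.82, 9.78 and 9.84 in adult wild type. In larvae it had 7.56, 7.11 and 7.21 in knockdown, against 9.62, 9.49 and 9.70 in wild type. The groups were far apart at both stages, and the averaged log2 change was -2.55 (SE 0.09, n = 3 arrays per group, limma adjusted p = 4.09e-10), a 5.88-fold fall. The adult change was -2.80 and the larval change -2.31, and the difference between them was not called (adjusted p = 0.0871).

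Of 9 measured genes of selenoprotein synthesis and selenoprotein families, 3 fell and 3 rose on the average. The falls were Sps2, SelT and SelG. SelG, the fly's selenoprotein K, had 9.70, 9.63 and 9.83 in adult knockdown and 10.11, 10.14 and 10.22 in adult wild type. Its larval values were 9.73, 9.93 and 9.87 in knockdown and 10.39, 10.50 and 10.50 in wild type, so that no knockdown array reached a wild-type array. The averaged change of SelG was -0.53 (SE 0.05, limma adjusted p = 5.6e-06). SelT, of a family that holds a selenoprotein in mammals, fell by 0.50 on the log2 scale (limma adjusted p = 3.27e-07) with a nearly equal size in adults (-0.47) and larvae (-0.53). The rises were smaller. SelR, a methionine sulfoxide reductase, rose by 0.17 (limma adjusted p = 0.00218), and its dimmer probe set rose by 0.37. Secp43, which binds the selenocysteine transfer RNA, rose by 0.35 and BthD by 0.22, but these calls were lost in 7 and 12 of 20 other settings. The list's number of rises fell to 1 without adult knockdown array 2 or 3, adult wild-type array 1 or larval wild-type array 1. The averaged changes of eEFSec (0.25), Sbp2 (0.07) and SecS (-0.03), the enzyme that uses selenophosphate, were not called.

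The largest rise among genes with a name was that of Prx6c, a peroxiredoxin of the class that reduces peroxides. Prx6c had 10.55, 10.56 and 10.84 in adult knockdown, against 3.88, 3.29 and 5.24 in adult wild type. In larvae it had 13.27, 13.30 and 13.30 in knockdown, against 7.71, 8.24 and 6.46 in wild type. The knockdown arrays were tightly grouped and all far above wild type, whose adult signal was below the 40th percentile of its arrays. Where arrays lay that low, an averaged fold is given as a lower bound, with each low value raised to that percentile of its array. The rise averaged at least 47.5-fold (log2 change 6.17, SE 0.31, limma adjusted p = 1.32e-08). Close copies of this gene exist in the fly genome, and a probe set may read more than 1 of them.

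The carboxylesterase gene alpha-Est2 and the zinc transporter family gene Zip102B were also near background in wild type. Alpha-Est2 had 8.18, 8.15 and 8.22 in adult knockdown and 4.15, 2.98 and 4.59 in adult wild type. Its larval values were 10.19, 9.88 and 9.59 in knockdown and 1.87, 4.04 and 1.70 in wild type. The knockdown arrays stood above all wild-type arrays at both stages, at least 13.8-fold on average (log2 change of alpha-Est2 5.81, SE 0.38, limma adjusted p = 1.5e-07), and the larval change was the larger. Zip102B had 8.88, 9.07 and 9.02 in adult knockdown and 5.67, 3.34 and 3.95 in adult wild type. In larvae Zip102B had 9.56, 9.54 and 9.59 in knockdown and 5.59, 3.17 and 2.77 in wild type. The rise of Zip102B averaged at least 14.9-fold (log2 change 5.19, SE 0.45, limma adjusted p = 2.31e-06), with wild-type arrays that spread more widely than the knockdown arrays.

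Bright genes rose as well. Eip63E, which encodes a cyclin-dependent kinase, had 10.86, 11.04 and 10.90 in adult knockdown and 5.996, 6.07 and 6.42 in adult wild type. Its larval values were 10.48, 10.30 and 10.44 in knockdown and 6.17, 6.30 and 6.30 in wild type. It had a small spread and an averaged log2 change of 4.46 (SE 0.08, limma adjusted p = 7.91e-13), or 22-fold. The gene whd encodes carnitine palmitoyltransferase 1, which admits long-chain fatty acids to mitochondria for oxidation. Its brighter probe set had 11.73, 11.86 and 11.66 in adult knockdown and 7.999, 8.43 and 8.31 in adult wild type. In larvae whd had 11.21, 10.87 and 10.60 in knockdown and 6.54, 7.31 and 7.42 in wild type. The groups did not overlap, and the averaged change of whd was 12.6-fold (log2 change 3.65, SE 0.15, limma adjusted p = 1.33e-09). A second probe set of whd, near background with a mean of 2.32, was not called.

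Further named rises ranged between 1.78 and 3.50 on the log2 scale. The cytochrome P450 gene Cyp28d1 had 11.20, 11.45 and 11.40 in adult knockdown and 9.15, 9.05 and 9.17 in adult wild type. In larvae Cyp28d1 had 11.33, 11.35 and 11.34 in knockdown and 8.84, 9.18 and 9.11 in wild type. Its changes were close to equal at the 2 stages, with an average of 2.26 (SE 0.06, limma adjusted p = 4.34e-11). NimC1, a phagocytosis receptor of blood cells, rose by 2.17 on average (at least 3.64-fold), and the metallothionein MtnB by 2.09 (4.26-fold). Hcs, which attaches biotin to carboxylases, rose by 1.90, and Cbl, a ubiquitin ligase that acts on growth factor receptors, by 1.81. A dimmer probe set of Cbl had a change of -0.35 and was not called. The ionotropic receptor Ir76a (3.50) was below the 40th percentile in wild type at both stages, and Sans (2.78) in wild-type adults. Ir76a rose at least 4.5-fold and Sans at least 2.98-fold on average. The other named rises were Rbm13 (2.20), the homeobox gene vis (2.15) and Alms1a (1.78), a centrosomal protein of the Alström family. A close copy of vis lies beside it in the genome, and a probe set may read both.

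The largest fall among genes with a name was that of l(2)gl, a cell polarity gene and tumour suppressor of epithelia and neuroblasts. It had 4.35, 4.70 and 4.57 in adult knockdown, against 10.15, 10.16 and 10.22 in adult wild type. In larvae l(2)gl had 5.05, 5.63 and 5.24 in knockdown, against 11.30, 11.12 and 11.13 in wild type. The adult knockdown signal was below the 40th percentile of its arrays, and the fall averaged at least 42.4-fold (log2 change -5.75, SE 0.11, limma adjusted p = 7.91e-13). Sps2 and l(2)gl are both on chromosome arm 2L, as were 2205 of the 11893 genes with a known place. Whether their position bears on the fall was not tested. Of 13 other measured genes of cell polarity, 4 fell and 2 rose, with changes of -0.24 for Patj, 0.39 for aPKC and 0.27 for cora. The list's falls, 5 with l(2)gl, dropped to 1 after median centring and to 3 without adult knockdown array 1 or adult wild-type array 1.

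Genes of transport and detoxification were among the other large falls. Oatp58Db, an organic anion transporter gene, had 4.08, 3.79 and 4.56 in adult knockdown and 7.32, 7.67 and 7.61 in adult wild type. In larvae Oatp58Db had 3.27, 2.32 and 1.65 in knockdown and 6.86, 7.14 and 6.82 in wild type. Knockdown was below the 40th percentile at both stages, so the fall averaged at least 4.12-fold (log2 change -3.96, SE 0.29, limma adjusted p = 4.53e-07). The glutathione transferase GstE5 had 6.25, 6.01 and 6.11 in adult knockdown and 8.90, 8.84 and 8.79 in adult wild type. In larvae GstE5 had 7.95, 7.60 and 7.89 in knockdown and 11.79, 11.99 and 12.14 in wild type. Its averaged change was -3.44 (SE 0.08, limma adjusted p = 9.3e-12), a 10.9-fold fall that was larger in larvae. The mitochondrial P450 gene Cyp12c1 fell by 3.34 on the log2 scale (10.2-fold, SE 0.18, limma adjusted p = 2.16e-08), with changes of -3.08 in adults and -3.61 in larvae. The glycosyltransferase Ugt35C1 fell by 3.05 on average.

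The other named falls came from several functions. BomS4, a short secreted peptide of the Bomanin family made under Toll signalling, had 10.23, 10.31 and 10.18 in adult knockdown and 12.32, 12.30 and 12.37 in adult wild type. In larvae BomS4 had 4.60, 4.94 and 4.95 in knockdown and 7.32, 8.06 and 8.13 in wild type. The groups did not overlap and the fall averaged at least 5.04-fold (log2 change -2.55, SE 0.12, limma adjusted p = 7.66e-09). The translation regulator orb2, which acts in memory and in spermatogenesis, had a change of -2.41, and pigs, a linker of actin and microtubules, one of -2.41. Rnf11, a RING finger gene, fell by 2.32 and its dimmer probe set by 1.09. Ccdc85 (-3.12) and Nepl3 (-2.36), a gene of the neprilysin peptidase family, were below the 40th percentile in knockdown at both stages, and the falls averaged at least 2.47-fold for Ccdc85 and 3.08-fold for Nepl3. The aspartic protease Bace (-2.31), the lysozyme LysP (-2.18, at least 2.90-fold) and the serine protease Jon66Ci (-2.12) completed the named falls, each with a larger change at 1 stage: larval for Bace and LysP, adult for Jon66Ci.

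**Figure D2:**
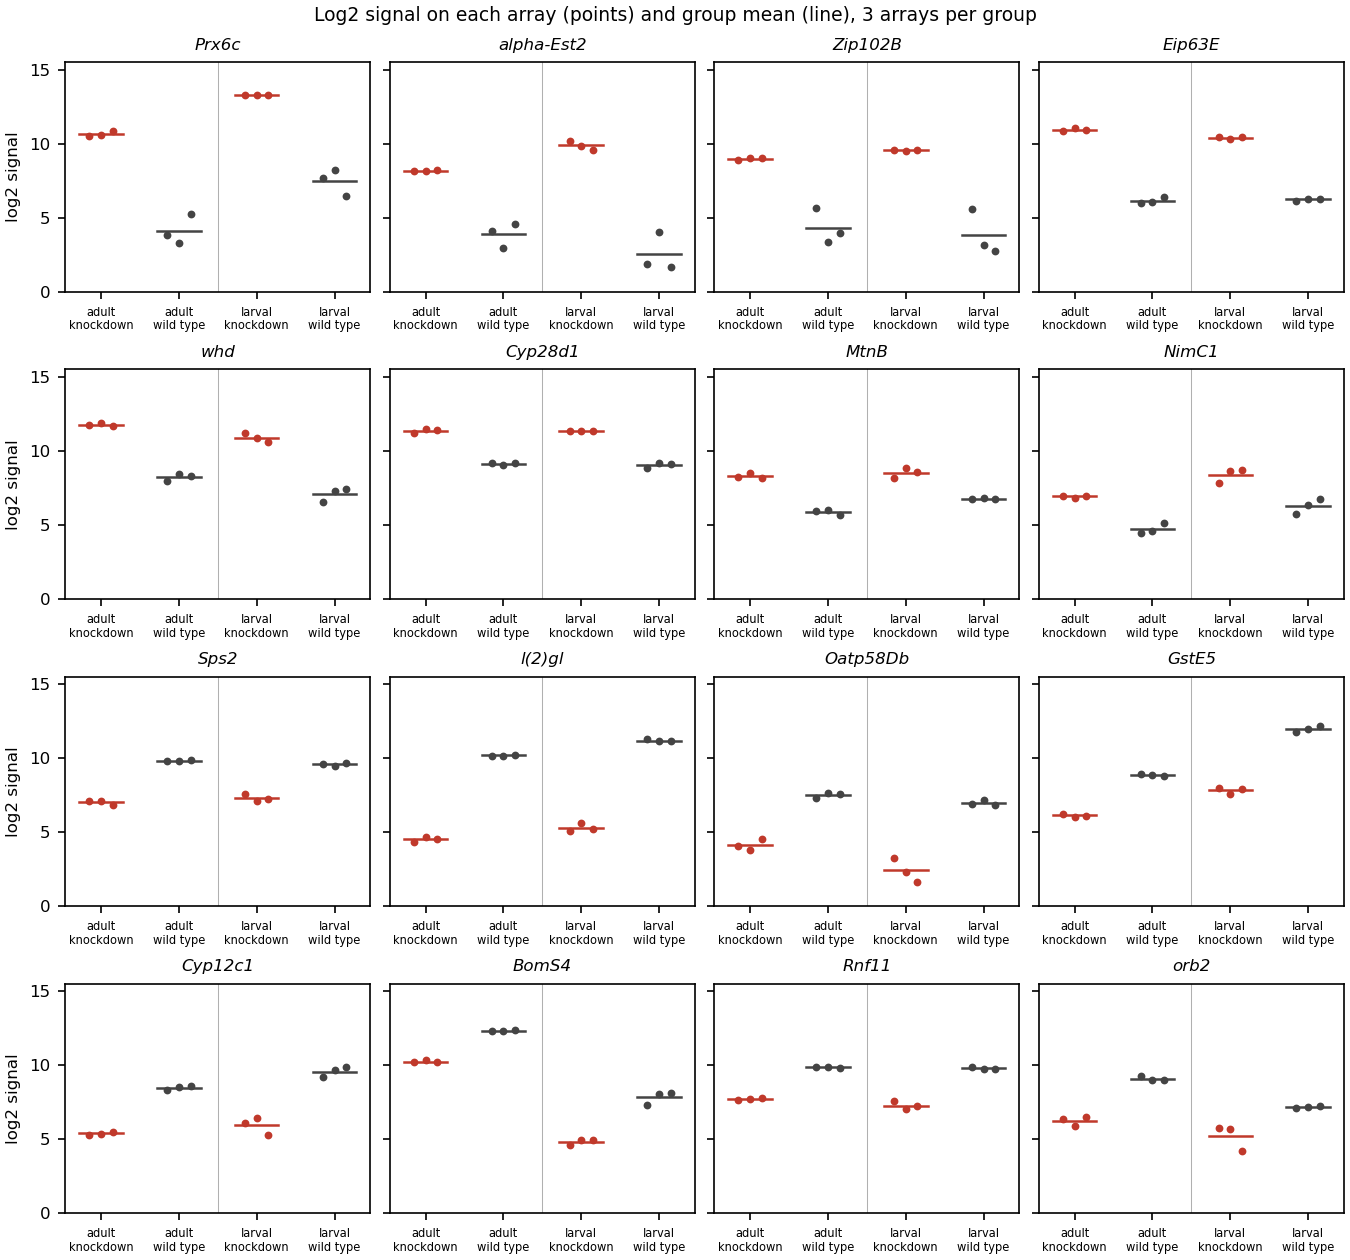
The log2 signal of 16 genes is drawn for each array (points) with the group mean (line), in the order adult knockdown, adult wild type, larval knockdown, larval wild type. In the top 2 rows all knockdown points (red) lie above the wild-type points (grey) of their stage, and in the bottom 2 rows all lie below.

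Genes known only by an annotation number held changes of the same size. CG11893 had 8.02, 7.91 and 7.91 in adult knockdown and 3.37, 4.09 and 4.20 in adult wild type. In larvae CG11893 had 12.21, 10.55 and 12.90 in knockdown and 4.58, 3.55 and 4.17 in wild type. All knockdown arrays were above all wild-type arrays, by at least 25.6-fold on average (log2 change 5.92, SE 0.33, limma adjusted p = 3.11e-08). CG14259 rose by 4.38 (at least 5.99-fold) and CG7900 by 3.92 (at least 11-fold). Among the falls, CG7300 changed by -5.09 (at least 10.2-fold), CG17032 by -4.61 (24.5-fold) and CG8768 by -4.55 (at least 16.9-fold). CG17032 had 5.24, 6.35 and 5.93 in adult knockdown and 9.53, 9.47 and 9.44 in adult wild type. In larvae CG17032 had 6.40, 6.39 and 6.26 in knockdown and 12.03, 11.89 and 11.89 in wild type, again with no overlap.

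Grouped by function, several parts of the machinery of gene expression had more rises than falls. All groups are read against 13.5% of all genes that rose and 12.4% that fell, and against 6.93% and 6.47% for shared changes. Of 69 mitochondrial ribosomal proteins, which translate the few messages of the mitochondrial genome, 38 rose (55.1%) and 3 fell, with 22 shared rises and a median change of 0.19, against 0.01 over all genes. The largest change was in mRpL48, which had 10.04, 10.06 and 10.02 in adult knockdown and 8.97, 8.57 and 8.71 in adult wild type. In larvae mRpL48 had 10.89, 11.06 and 11.04 in knockdown and 9.09, 8.91 and 9.42 in wild type. It rose on average by 1.57 (SE 0.09, limma adjusted p = 2.77e-08). Against the direction of its group, mRpL45 fell by 1.11 (limma adjusted p = 1.05e-07). In the group 13 genes were called higher in adults and 41 in larvae, and the difference between stages was called for 15 genes. Quantile normalization gave 27 rises in the group, 16 of them shared, and a median of 0.13, and median centring 45 rises, 24 of them shared. Of 32 cytosolic ribosomal proteins 2 rose and none fell, and 16 rose after median centring; without any of 8 single arrays 1 rise remained.

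Enzymes that charge transfer RNAs rose in 11 of 31 cases and fell in 4. LeuRS rose by 0.61 (limma adjusted p = 1.5e-05), HisRS by 0.50 and CysRS by 0.41. Of 41 genes of the proteasome, which degrades proteins, 14 rose and none fell in the averaged contrast, with a median of 0.10, and 22 rose after median centring. Shared rises numbered 7 as deposited and 2 after median centring. In adults 14 proteasome genes were called higher and in larvae 4, beside 11% and 12.6% of all genes. Prosbeta4 rose by 0.35 and Prosbeta2 by 0.36, both core particle subunits. Of 38 cell cycle and DNA replication genes, 16 rose and 2 fell, 5 of the rises were shared (13.2% of the list), and the difference between stages was called for 13 genes. In adults 19 of them were called higher and in larvae 5, where 11% and 12.6% of all genes were. Thymidylate synthase (Ts), which makes the thymine nucleotide for DNA, rose by 1.30 (limma adjusted p = 4.81e-09) and the ribonucleotide reductase subunit RnrL by 0.45. Of 19 genes of histones and chromatin 6 rose and none fell, among them HP1c (0.62). In adults 9 of the 19 were called higher and none lower, and in larvae 3 higher and 1 lower. Of 24 DNA repair genes 5 rose and 2 fell, with mre11, a nuclease that acts at double-strand breaks, up by 1.36 and the mismatch repair gene Msh6 down (-0.81).

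A further 16 families were chosen after the averaged changes had been seen, so their counts describe and do not test. Of 32 spliceosome genes 17 rose and none fell, with 14 shared rises, and the difference between stages was called for none. After median centring 22 of them rose, but only 7 rises were shared. SmE, a core protein of the small nuclear particles, had 11.86, 11.87 and 11.88 in adult knockdown and 11.26, 11.33 and 11.18 in adult wild type. In larvae SmE had 11.11, 11.26 and 11.26 in knockdown and 10.23, 10.43 and 10.20 in wild type. Its rise of 0.77 (SE 0.05, limma adjusted p = 9.85e-08) was several times its error. Quantile normalization gave 16 rises and 2 falls in this family. The cap-binding gene Cbp80 led the mRNA 3' end and Integrator genes, of which 9 of 20 rose and none fell, with a change of 1.74 (SE 0.07, limma adjusted p = 7.95e-10), and a dimmer probe set of Cbp80 rose by 0.59. RNA polymerase II and its general factors rose in 12 of 30 cases, Mediator subunits in 9 of 22 and nuclear pore genes in 9 of 23, with no fall in these 3 families as deposited and 2 falls in the first after quantile normalization. MED20 rose by 1.10, TfIIS by 0.53 and Nup62 by 0.39. Of 14 genes of the kinetochore and chromosomal passenger complex 9 rose, 7 of them shared, with a median of 0.39. After median centring 9 rose and 4 rises were shared. Mis12 rose by 1.03, borr by 0.69 and cal1, which loads the centromeric histone, by 0.63.

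Some smaller families chosen in the same way, among them complexes that fold or insert proteins, also had more rises than falls. The endoplasmic reticulum membrane complex had 5 rises and 1 fall among 9 genes, and the COP9 signalosome 4 rises and 1 fall among 8, a fall that was lost without any of 8 single arrays. In the chaperonin CCT 4 of 8 rose and 1 fell, and the fall was shared: CCT2 had 12.82, 12.79 and 12.74 in adult knockdown and 13.15, 13.20 and 13.14 in adult wild type. In larvae CCT2 had 12.23, 12.26 and 12.34 in knockdown and 12.73, 12.59 and 12.62 in wild type, a change of -0.37 on average (limma adjusted p = 2.97e-06). In purine synthesis, Pfas rose by 1.04 and Adsl by 1.10, both enzymes on the way to inosine monophosphate, while Adss, which takes that product on toward AMP, fell by 0.24, and in all 4 of 8 rose and 3 fell.

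**Figure D3:**
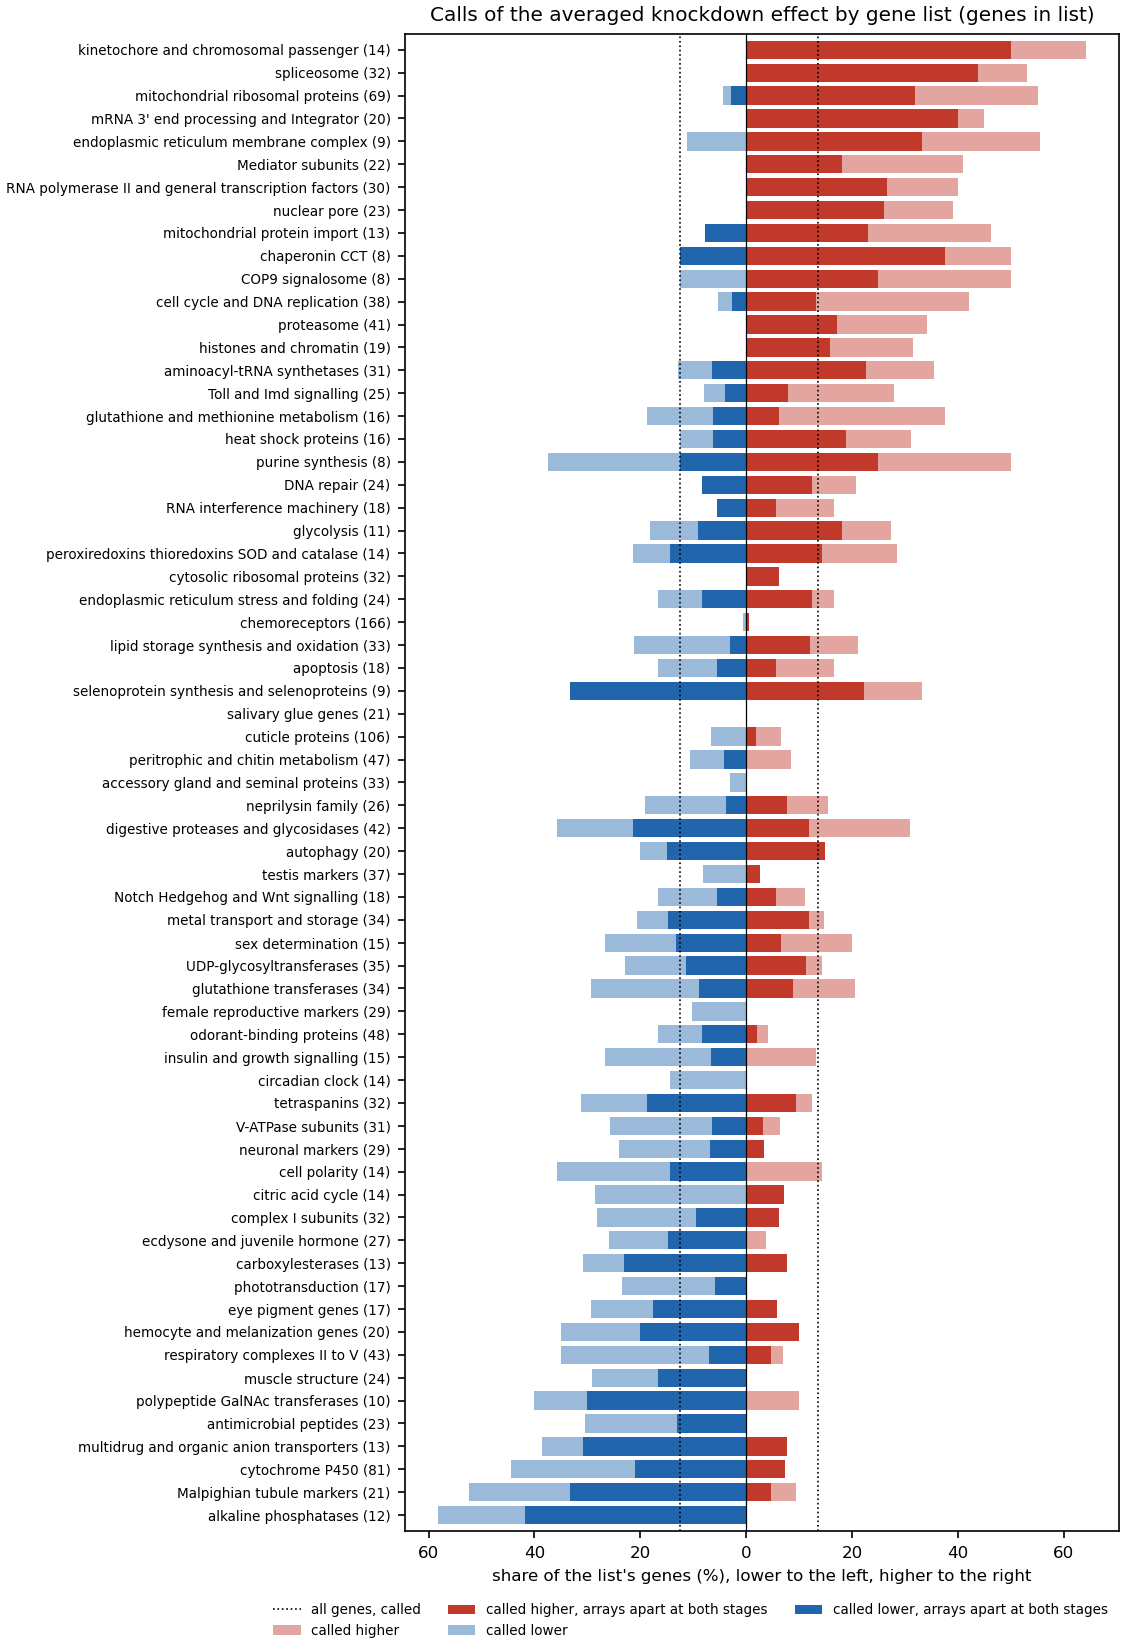
For each gene list with at least 8 measured genes, bars to the right give the share of its genes that rose on the average and bars to the left the share that fell, with shared changes in the darker tone. Dotted lines mark 13.5% and 12.4%, the shares over all genes. Kinetochore, spliceosome and mitochondrial ribosomal genes lie at the top, and P450, Malpighian tubule and alkaline phosphatase genes at the bottom. The 16 families chosen after the changes were seen are drawn unmarked among the others. They include the kinetochore, spliceosome and alkaline phosphatase genes, whose places describe and do not test.

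Genes for detoxification and for epithelial transport had more falls than rises. Cytochrome P450 enzymes oxidise hormones, fatty acids and foreign compounds. Of 81 measured P450 genes, 36 fell (44.4%) and 6 rose, the median change was -0.39, and 17 falls were shared. After median centring 29 fell and 9 rose. Cyp6d5 had 9.54, 9.47 and 9.73 in adult knockdown and 11.77, 11.66 and 11.70 in adult wild type. In larvae Cyp6d5 had 9.77, 10.01 and 9.56 in knockdown and 11.28, 11.94 and 11.91 in wild type. It fell by 2.03 on average (SE 0.11, limma adjusted p = 2.03e-08), close to equally at both stages. Cyp9b2 fell by 1.83 on average, but with a change of 0.14 in adults and -3.80 in larvae, and the difference between stages was called for 26 of the 81. Cyp28d1, at 2.26, was the largest of the 6 rises.

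The other families of detoxification were less one-sided. Of 34 glutathione transferases 10 fell and 7 rose, and the median of -0.04 became 0.06 after median centring. Of 35 UDP-glycosyltransferases, which attach sugars to small molecules, 8 fell and 5 rose, with a median of -0.09 as deposited and 0.01 after median centring. Ugt35B1, below the 40th percentile in knockdown at both stages, fell at least 6.29-fold on average, and Ugt50B3 fell by 2.04. Among 13 carboxylesterases 4 fell and 1 rose. Jhe, which degrades juvenile hormone, fell by 1.21, while alpha-Est2 was the rise. The falls in this list were 2 without adult knockdown array 1 or 3, adult wild-type array 1 or 3 or larval wild-type array 3.

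**Figure D4:**
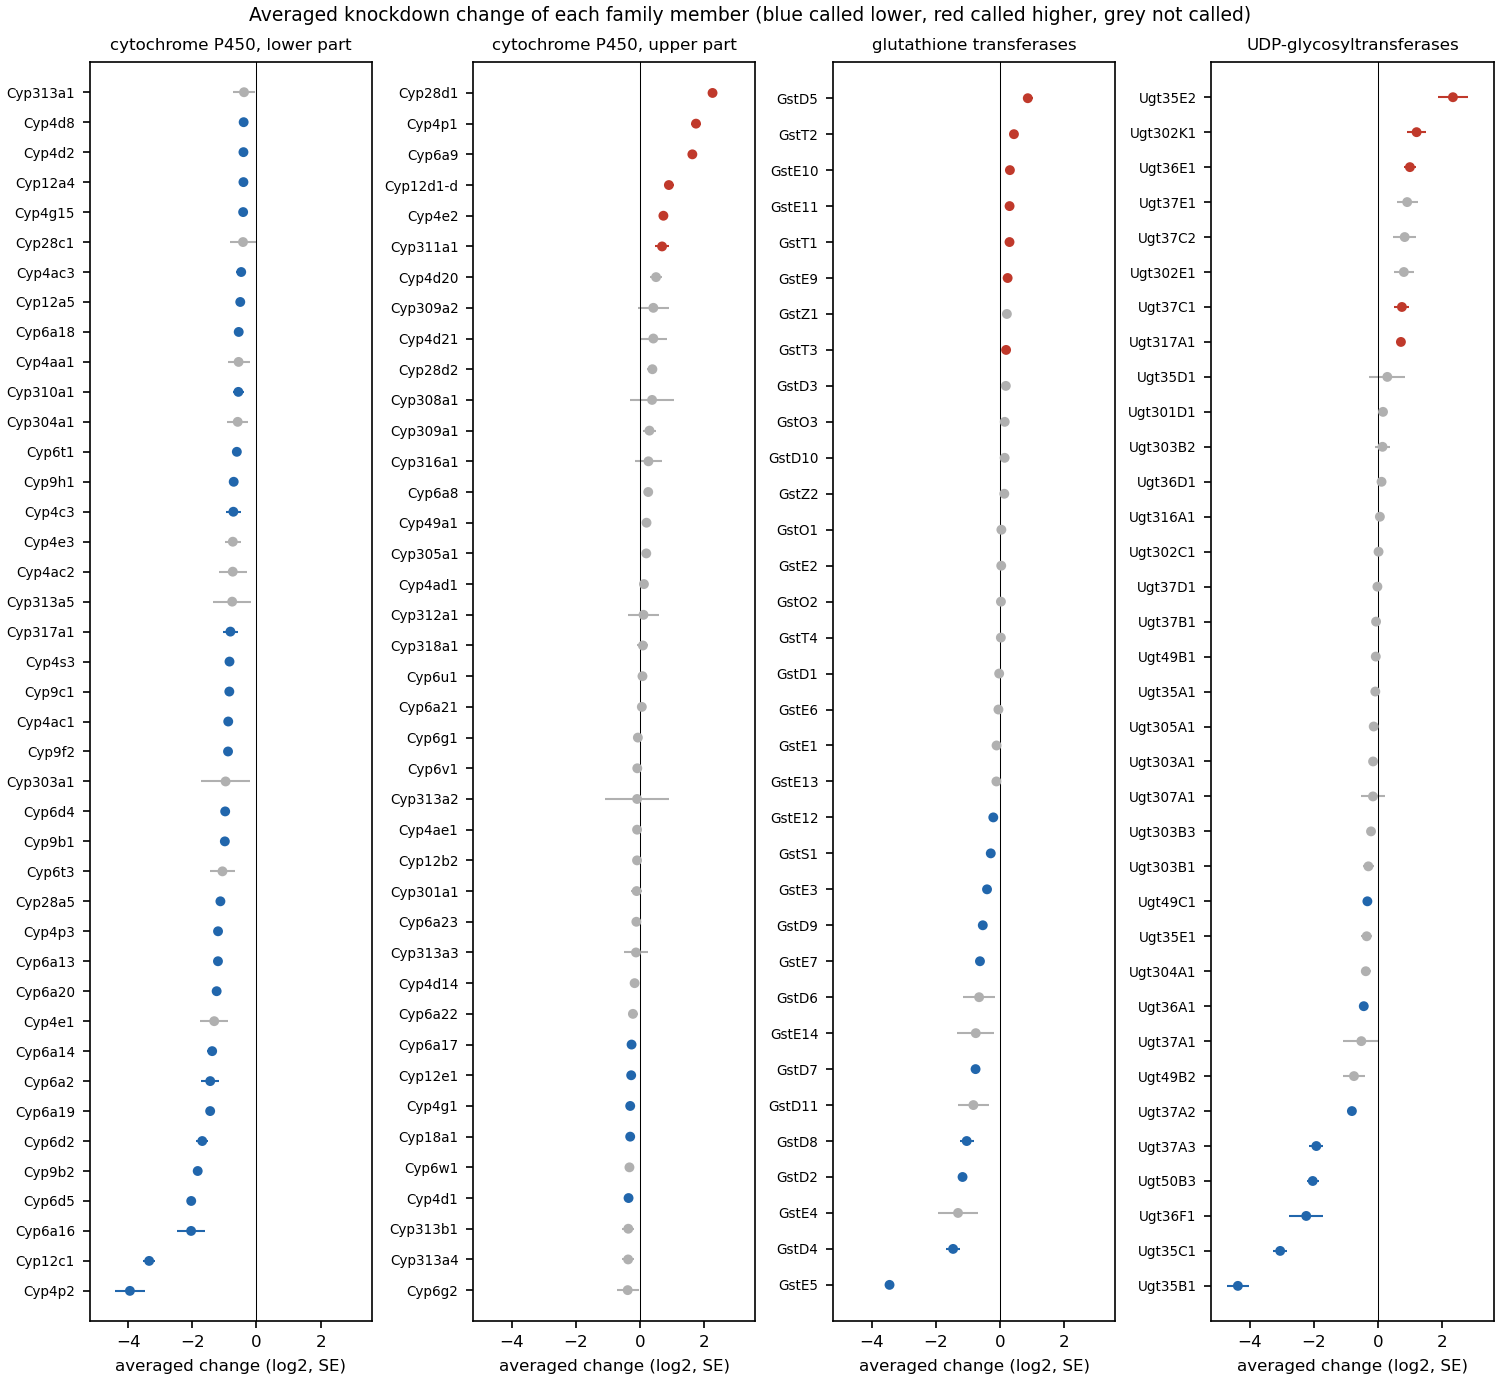
The averaged change of every measured P450, glutathione transferase and UDP-glycosyltransferase gene is drawn with its standard error, ordered by size. Blue points are called lower, red points called higher and grey points not called; P450 genes lie mainly to the left of 0, with Cyp28d1 (2.26) farthest to the right and Cyp12c1 (-3.34) near the bottom.

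The Malpighian tubules are the fly's excretory organ. Of 21 measured tubule marker genes 11 fell and 2 rose, 7 of the falls were shared, and the median change was -0.36; after median centring 9 fell, and the rises were 1 without adult knockdown array 1 or adult wild-type array 2. Whether tubule content differed between the samples was not tested. The falls included Oatp58Db and Oatp58Dc, salt (-0.76) and the phosphate cotransporter family gene Picot (-0.80). Among 13 multidrug and organic anion transporters, which include the same pair and Oatp58Da, 5 fell and 1 rose. Mdr50, an ATP-driven exporter, had 7.48, 7.06 and 6.93 in adult knockdown and 7.93, 8.12 and 8.47 in adult wild type. In larvae Mdr50 had 9.32, 9.11 and 9.05 in knockdown and 10.35, 10.42 and 10.48 in wild type. Its change was -1.14 (SE 0.11, limma adjusted p = 5.03e-06). Among the families chosen after seeing the changes, 7 of 12 alkaline phosphatases fell and none rose, with a median of -0.61, and 10 of 32 tetraspanins fell and 4 rose. Alp2 fell by 1.46 and Tsp42Ee by 1.21. Of 31 subunits of the proton pump V-ATPase 8 fell and 2 rose, but 2 fell and 4 rose after median centring, and 4 or 5 fell without any of 8 single arrays. In adults 9 of these subunits were called lower and 1 higher, and in larvae none lower and 3 higher.

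Genes of the gut moved in both directions. Of 42 digestive proteases and glycosidases 15 fell and 13 rose, a larger share of calls than over all genes in each direction, and the difference between stages was called for 21. The trypsin thetaTry fell by 1.42 and etaTry by 0.72, while the lysosomal mannosidase LManI rose by 1.38. Jon66Ci had 4.28, 4.15 and 4.81 in adult knockdown and 8.05, 7.83 and 7.56 in adult wild type. In larvae Jon66Ci had 13.45, 13.39 and 13.34 in knockdown and 14.20, 14.25 and 14.24 in wild type. The gene was thus lower at both stages, on very different levels, with a fall of at least 6.39-fold in adults and 1.79-fold in larvae.

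Among immune genes, the effector peptides and the genes of blood cells and melanization had more falls than rises. Of 23 antimicrobial peptide genes 7 fell and none rose, with 3 shared falls, all Bomanins: BomS4, BomS2 (-2.05) and BomBc2 (-1.74). BomBc2 was below the 40th percentile in knockdown larvae, and with low values raised its change was -0.25 and no longer called (limma adjusted p = 0.0973). For each of these the difference between stages was called, with the larger change in larvae. In the signalling pathways that induce such peptides, 7 of 25 Toll and Imd genes rose and 2 fell. The adaptor Myd88 rose by 0.55 and the ligand spz by 0.41, while the caspase Dredd of the Imd branch fell by 0.33. Among 20 genes of blood cells and melanization 7 fell and 2 rose. The receptors NimC1 and NimB2 (0.59) rose, whereas Hml (-0.68), a clotting protein of plasmatocytes, and the phagocytosis receptor eater (-0.86) fell, so the markers of this cell type did not move together. Their part in the fall of the peptide genes was not tested.

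Genes that handle metals and peroxides divided within families. The metallothioneins, small cysteine-rich proteins that bind copper and other metals, went in both directions. MtnC had 12.46, 12.26 and 12.42 in adult knockdown and 11.59, 11.51 and 11.45 in adult wild type, while the larval values were 7.69, 7.79 and 7.68 in knockdown and 7.01, 7.02 and 7.11 in wild type. MtnB, MtnC (0.77) and MtnD (0.88) rose, while MtnA fell by 0.57 (limma adjusted p = 2.88e-07). In the whole list of 34 metal genes 5 rose and 7 fell. Of 14 peroxiredoxins, thioredoxins, superoxide dismutases and catalase, 4 rose and 3 fell; Prx3 of mitochondria rose by 0.31, and catalase (Cat) fell by 0.40. The rises in this list were 2 without adult knockdown array 3, adult wild-type array 2 or larval wild-type array 2. Among 16 heat shock proteins 5 rose and 2 fell. The small chaperones Hsp27 (0.51) and Hsp26 (0.44) rose at both stages and the mitochondrial chaperonin Hsp60A fell by 0.51. Of 24 genes of endoplasmic reticulum stress and folding 4 rose and 4 fell, and the stress kinase PEK rose by 1.03.

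Respiratory chain genes gave counts that depended on scaling. Of 32 complex I subunits 9 fell and 2 rose, and after median centring 2 fell and 3 rose. Of 43 subunits of complexes II to V, 15 fell and 3 rose, and after median centring 3 fell and 3 rose; 8 fell without adult knockdown array 1, adult wild-type array 2 or 3, or larval knockdown array 1 or 2. In complex I 11 genes were called lower in adults and 2 in larvae, and in complexes II to V 23 in adults and 3 in larvae, beside 12.7% of all genes in adults and 8.72% in larvae. Shared falls of larger size were those of ND-SGDH (-0.53) and ND-39 (-0.51), both complex I subunits. ATPsyngamma of the ATP synthase rose by 0.25 on its brighter probe set, but its other probe set fell by 0.10. Among 33 genes of lipid storage, synthesis and oxidation 7 rose and 7 fell. Beside whd, yip2, an enzyme of fatty acid oxidation, rose by 0.87 at both stages, while FASN1, the fatty acid synthase, had an averaged change of -0.22, with -0.55 in adults and 0.10 in larvae, and lost its call after median centring (-0.13, limma adjusted p = 0.0761). In the citric acid cycle ScsbetaG rose by 0.83, and its 2 dimmer probe sets were not called.

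As deposited, hormone and growth signalling genes had more falls than rises. Of 27 genes of ecdysone and juvenile hormone 7 fell and 1 rose, 4 of the falls being shared (14.8% of the list), with the nuclear receptors Hr38 (-1.15) and EcR (-0.73) and the esterase Jhe among them. The single rise was lost without any of 5 arrays, adult knockdown 2 or 3, adult wild type 1 or 2, or larval knockdown 1. Of 15 genes of insulin and growth signalling 4 fell and 2 rose, with a shared fall of ImpL2 (-0.50), which binds insulin-like peptides. In this list 4 rose without larval knockdown array 3. After median centring 4 of its genes rose and 4 fell, against 1 rise and 7 falls in the ecdysone and juvenile hormone list.

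Most markers of muscle and neurons were not called. Of 24 muscle structure genes 7 fell and none rose, but 2 fell after median centring, 3 without adult knockdown array 2 and 4 without adult wild-type array 3. The titin-like gene sls fell by 0.45 and bt by 0.20, and bt lost its call after median centring. Of 29 neuronal markers 7 fell and 1 rose, with 2 falls after median centring and 4 without adult wild-type array 3. The sodium pump subunit nrv2 had 8.89, 8.49 and 8.67 in adult knockdown and 9.95, 9.92 and 9.86 in adult wild type. In larvae nrv2 had 9.31, 9.28 and 9.32 in knockdown and 10.40, 10.30 and 10.44 in wild type. It fell by 1.15 (limma adjusted p = 2.76e-08), much more than the other shared neuronal fall, shi (-0.28), which lost its call after median centring, although a dimmer probe set of shi fell by 1.07. Galphaq, the G protein subunit of phototransduction, fell by 2.03 (limma adjusted p = 7.75e-07). Of its other probe sets 1 fell by 1.25 and the other, at -0.27, was not called.

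Reproductive markers had few calls on the average. Among 37 testis markers the median change was -0.54 in adults and 0.49 in larvae, and 1 rose and 3 fell on the average; the rise was lost without any of 9 single arrays and the falls numbered 1 without any of 6. Among 33 accessory gland and seminal protein genes 1 was called, which was lost without any of 8 single arrays, and among 29 female reproductive markers 3 fell, or 5 without larval wild-type array 1. None of 21 salivary glue genes was called, and of 166 chemoreceptor genes 2 were, Ir76a, which rose, and Or33b, while 1 to 4 rose and 1 to 3 fell as single arrays were left out. Or33b was below the 40th percentile in all 4 groups and lost its call with low values raised (limma adjusted p = 0.298). The leading shared changes named above did not belong to these lists, with Ir76a as the exception.

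By chromosome arm, the share of genes with a shared change of at least 2-fold was 2.54% on 2L, 2.76% on 2R, 2.39% on 3L, 2.19% on 3R and 1.12% on the X chromosome, and on chromosome 4 it was 3.08%, which is 2 of 65 genes. Shared genes lay beside other shared genes in 32.7% of cases, against 23.5% for other genes, counting only measured genes in the order of the RefSeq table (Release 6). Of 11885 neighbouring pairs, 188 were shared in the same direction and 101 in opposite directions. These pairs are not independent, and overlapping or copied genes can share probe signal, which was not tested. There were 21 runs of at least 3 neighbours shared in 1 direction, 9 higher and 12 lower, and the longest held 6 genes.

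The longest run began with the 3 Oatp58D genes on 2R. Oatp58Da changed by -0.64 in adults and -0.76 in larvae, Oatp58Db by -3.39 and -4.53, and Oatp58Dc by -0.87 and -1.03. The run went on through dve, CG5819 and wdp (-0.43 on average), of which dve lost its call in 14 of 20 other settings. Also on 2R, CG14505 (-2.40) was followed by BomS4, BomBc2 and BomS2, all lower, but with low values raised BomBc2 lost its call and the change of CG14505 was -0.40. On 3R, a run of 5 genes fell, with CG10513 at -1.39, CG10514 at -2.45 and CG11892 at -2.36 in its middle. The genes at its ends, CG11878 and CG31300, lost their calls in 9 and 6 of 20 other settings. Close to this run stood 2 of the larger rises, CG11891 (2.14) beside it and CG11893 (5.92) a few genes beyond, so that rises and falls of large size were neighbours.

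**Figure D5:**
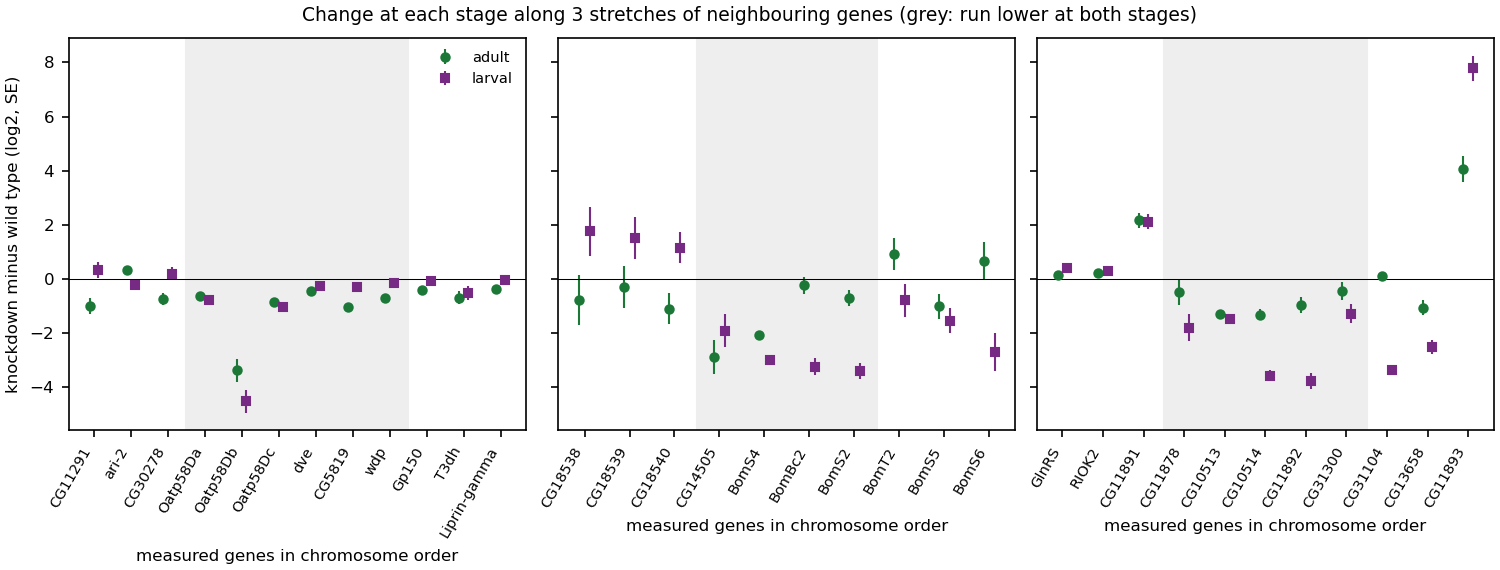
The adult change (green circles) and larval change (purple squares), knockdown minus wild type on the log2 scale with standard errors, are drawn for measured genes in chromosome order around 3 runs of shared falls (grey). Oatp58Db falls most in the first run, the Bomanin genes fall mainly in larvae in the second, and in the third the falls lie between CG11891 and CG11893, which rise.

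An average hides genes that change in opposite directions, of which 236 were called at both stages, 69 higher in adults and lower in larvae and 167 the reverse. Lsp2, a serum storage protein made by the fat body, had 10.64, 10.55 and 10.45 in adult knockdown and 7.81, 7.15 and 8.37 in adult wild type. In larvae Lsp2 had 7.81, 6.99 and 6.28 in knockdown and 9.78, 14.08 and 14.02 in wild type, where 1 array stood far below the other 2. Its adult change was 2.77 and its larval change -5.60, and the average (-1.41) was not called (limma adjusted p = 0.13). The glucosidase gene tobi changed by 1.57 in adults and -1.82 in larvae, and Cyp6g1, a P450 known for insecticide resistance, by 1.11 and -1.24. In the other direction Pepck2, an enzyme of gluconeogenesis, changed by -0.94 in adults and 1.54 in larvae, and Had2 by -1.15 and 1.77. Of these 5 genes Had2 alone was called on the average, at 0.31, and it lost that call in 7 of 20 other settings.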

How the data were processed

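The authors deposited log2 signals, 1 for each probe set on each array. MAS5, with no version stated, is named in the submitters' processing notes, and the log2 scale was read from the values. Of 18952 probe sets, 183 controls were left out and 18769 tested without a filter. The platform annotation gave 1 symbol to 13647, several to 402 and none to 4720, and 13544 were found in the RefSeq table (Release 6), with 0 symbols changed. Each gene was represented by the brightest of its probe sets with 1 symbol (mean over the 12 arrays), which gave 11982 genes. All columns were mapped to samples, with 0 left over. No genome sequence was used here.

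All arrays entered 1 model of 4 group means (limma 3.58.1 in R 4.3.3, lmFit and eBayes with a variance trend, 8 residual degrees of freedom). The Benjamini-Hochberg adjustment ran over all 18769 probe sets. Where arrays lay below their own 40th percentile, averaged folds are lower bounds from the fit with low values raised to it. Log2 changes are from the deposited values and are not bounds. With low values raised, the averaged change was -1.22 for Alp2, -1.90 for Ugt50B3, -0.93 for Hr38, -1.76 for Jon66Ci and 1.90 for CG11891. Precision is limited by the 3 arrays per group, and intensities this low have little signal over background. Groups came from the labels. Replicate numbers did not pair arrays: same-numbered knockdown and wild-type residuals correlated at -0.034 to -0.002. On simulated arrays of 18769 probe sets, 66, 67 and 67 were changed by 0.5, 1 and 2 on the log2 scale. Of these 40.9%, 47.8% and 62.7% were called on the averaged contrast, with 8 false calls among the rest. The adjustment depends on the share of changed probe sets, and in the data 19.7% were called. These shares therefore do not measure the sensitivity of the real contrast.

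The members and the gene lists were chosen with earlier results of these data known. The 51 lists of the design had 5 wrongly matched names removed by hand, and 16 families were added after the averaged changes were seen. Named are Sps2 and the selenoprotein genes, the 15 largest shared rises and falls with a name and a signal at or above the median (6.28) at both stages, 3 each way among annotation numbers, up to 4 called members per list with the smallest adjusted p, and 5 genes called in opposite directions. Alternatives were other scalings, filters, variance models, array weights, a replicate block and leaving out each array.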

Additional observations from a re-analysis of the deposited data

Results flagged for a closer look

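Of the 145 genes described, 50 had an adult change that differed from the larval change by the test of the difference itself (limma, called at the same threshold). Over all genes the share was 16.6%. The genes described were selected by their changes, and the 5 called in opposite directions, listed last, by the size of this difference. Values are the adult change minus the larval change on the log2 scale, so a positive value means a higher change in adults. No explanation of them was tested. At 1 stage or both, a genotype had signals under the 40th percentile for alpha-Est2, CG11893, BomS4, BomBc2, LysP, Jon66Ci, CG7300 and Ugt35B1, so the size of these differences is uncertain.

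Among the large rises the difference was -3.07 for alpha-Est2, 0.62 for Eip63E, 1.28 for Rbm13, 1.39 for Alms1a and -3.73 for CG11893. Among the large falls it was 1.44 for GstE5, 2.96 for Ugt35C1, 0.91 for BomS4, 3.82 for Bace, 3.14 for LysP, -2.56 for Jon66Ci, 3.57 for CG7300 and 1.95 for CG17032. In the detoxification families it was 3.94 for Cyp9b2, -4.91 for Ugt35B1 and 0.77 for Jhe. For genes of immunity it was 2.69 for BomS2, 3.00 for BomBc2, 0.41 for spz, -0.50 for Hml and -0.999 for eater.

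For genes of transport and digestion the difference was -0.98 for salt, -0.56 for Picot, -0.69 for thetaTry, -0.44 for etaTry and -1.02 for LManI. In gene expression, replication and division it was -0.57 for mRpL48, 0.46 for CysRS, 0.74 for TfIIS, -0.58 for MED20, 0.46 for Ts, -1.04 for mre11, -0.86 for cal1 and 0.97 for Mis12. In metabolism and stress it was -0.47 for ScsbetaG, -0.64 for FASN1, -0.55 for Adsl, 0.59 for MtnA and 0.84 for PEK. Odorant-binding genes had -0.71 for Obp49a and -0.59 for Obp99c.

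In the runs of neighbours it was -0.71 for CG5819, -0.53 for wdp, 2.26 for CG10514 and 2.79 for CG11892. For the genes called in opposite directions it was 8.37 for Lsp2, 3.39 for tobi, 2.36 for Cyp6g1, -2.92 for Had2 and -2.48 for Pepck2.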

How the results depend on the processing

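The averaged contrast called 3692 probe sets, and 3075 to 3739 as single arrays were left out, with 1889 to 2196 shared. Higher calls ranged over 1530 to 1985 and lower calls over 1495 to 1835, shared rises over 962 to 1146 and shared falls over 903 to 1084, calls of the difference between stages over 1575 to 2468, and the change of Sps2 over -2.62 to -2.51. After median centring 2933 probe sets were called higher and 1176 lower, 533 falls were shared, and the difference was called for 4209, since centring adds the gap between the arrays' medians. Raising low values to the 40th percentile gave 10105 calls of the difference, since that floor differs between arrays, and leaving out the variance trend gave 1308; the cause of the last was not tested. Quantile normalization kept 89.7% of the calls and 87.6% of the shared probe sets. Median centring kept 83.4% of the calls and only 62.8% of the shared probe sets. Of the called probe sets, 1050 were also called at both stages separately in the same direction. Fitting adult arrays alone (5770 calls) and larval arrays alone (2109), an alternative chosen after seeing the data, gave 976 called in both in the same direction, of which 969 were shared in the joint fit. The fit with the replicate number as a block called 3227 probe sets, 1804 of them shared. The 30 genes with the largest rises and falls kept their calls in all 20 other settings of the averaged contrast. They were picked by size among called genes of the same arrays, so their kept calls are no independent test. List counts of 1 to 7 moved by more than 1.5 times without single arrays in the lists of lysozymes, glycolysis, citric acid cycle, RNA interference, eye pigment, odorant-binding, circadian, cuticle, peritrophic, mitochondrial import, GalNAc transferase and neprilysin genes. Signals near background limit the sizes given as lower bounds.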

Other observations

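Smaller groups that no comparison above leads with were divided in direction. Of 48 odorant-binding protein genes 8 fell and 2 rose on the average, and of these Obp49a changed by -1.03 and Obp99c by 0.64. Of 20 autophagy genes 3 rose and 4 fell, with Atg14 at 0.41, Atg16 at 0.31 and Atg18a at -0.54. In RNA interference 3 of 18 genes rose and 1 fell, with vret at 0.66 and r2d2 at -0.52. In the list headed Notch, Hedgehog and Wnt signalling, which also holds genes of other pathways such as put, 2 of 18 rose and 3 fell. Of these put changed by 0.32 and the transcription factor ci by -0.41. The mucin-type glycosyltransferase Pgant2 changed by -0.83, in a family where 4 of 10 fell and 1 rose. The neprilysin family had 4 rises and 5 falls among 26 genes, and its Nepl10 changed by 1.52.

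In glutathione and methionine metabolism 6 of 16 genes rose and 3 fell, and in glycolysis 3 of 11 rose and 2 fell. In the citric acid cycle 1 of 14 rose and 4 fell, and in apoptosis 3 of 18 rose and 3 fell. After median centring glycolysis had 5 rises and 0 falls, the citric acid cycle 4 and 0, and apoptosis 4 and 1. Of 13 genes of mitochondrial protein import 6 rose and 1 fell. Cuticle proteins had 7 rises and 7 falls among 106 genes, and peritrophic and chitin genes 4 rises and 5 falls among 47. Eye pigment genes had 1 rise and 5 falls among 17, and phototransduction genes 4 falls among 17. Circadian clock genes had 2 falls among 14 and sex determination genes 3 rises and 4 falls among 15. After median centring the circadian genes had 1 rise and 0 falls, the sex determination genes 3 and 2, and the peritrophic and chitin genes 5 and 3. Of 3 lysozymes 1 rose and 2 fell, and of 3 larval serum and fat body genes 1 fell. Probe sets without a symbol accounted for 155 of the shared probe sets, and those with several symbols for 69.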
